A study of Mus musculus with 2 samples.

Results

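The Reg3 and Reg4 C-type lectins of the ileal epithelium were described here in WT and Tipe0-/- mice. The members were the rows of the count tables whose symbol was Reg3a, Reg3b, Reg3g or Reg4, which gave 4 of 27998 genes, and all 4 had more UMIs than the minimum of 50 that was set for a comparison. Ileal enterocytes of C57BL/6 mice aged 8 weeks were profiled by droplet-based sc-RNASeq with 3′ chemistry. A unique molecular identifier (UMI) marks each captured mRNA molecule, so that PCR copies are counted once. The WT group was labeled wild type. The Tipe0-/- group was labeled TNFAIP8-/- and lacks the gene for TIPE0, a phospholipid-binding protein of the TNFAIP8 family. Cells of 3 mice were pooled for each genotype before sequencing, so each genotype had 1 library and mice could not be told apart. The labels name no agent given to either group. They call the material both enterocytes and enteroids, and whether any culture preceded dissociation was not resolved here.

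Reg lectins are small secreted proteins with a C-type lectin domain. In the small intestine Reg3g binds peptidoglycan and kills Gram-positive bacteria, Reg3b acts on Gram-negative and some Gram-positive bacteria, and together they keep microbes away from the villus surface. Both are known to be induced by the microbiota through MyD88 in epithelial cells and through IL-22, a lymphocyte cytokine whose receptor activates STAT3. Reg3a is a less studied relative, and Reg4 is a mannan-binding lectin known as a marker of enteroendocrine, goblet and Paneth-type secretory cells.

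The 3 Reg3 members lie in a cluster of 6 Reg genes that spans 98.2 kb of chromosome 6, and Reg4 lies apart on chromosome 3. In GRCm38 with the GENCODE vM21 annotation, Reg3b (ENSMUSG00000071356) was at chr6:78370657-78373466 on the plus strand, Reg3a (ENSMUSG00000079516) at chr6:78380709-78383827 on the plus strand, and Reg3g (ENSMUSG00000030017) at chr6:78466269-78468872 on the minus strand. Reg4 (ENSMUSG00000027876) was at chr3:98222156-98236748 on the plus strand. The longest run of bases that transcripts of any 2 Reg genes shared was 35, between Reg3b and Reg3g.

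The 150 bases before the RefSeq transcription start of each member (RefSeq sequence, GRCm38.p6) are printed because Reg3b and Reg3g were measured at high levels in the same cells. They are chr6:78370735-78370884 (plus strand) for Reg3b, chr6:78468875-78469024 (minus strand) for Reg3g, chr6:78380559-78380708 (plus strand) for Reg3a and chr3:98222006-98222155 (plus strand) for Reg4. Each reads 5′ to 3′ toward the start, and 24 bases of the Reg3b window were also annotated as exon in GENCODE. Capitals mark matches to TATAAA, the core of a TATA box, to TTCNNNGAA, the pattern that STAT factors bind, and to AGATAA, which factors of the GATA family bind, each searched on both strands. They also mark the longest run that the windows of Reg3b and Reg3g share. No match overlapped another.
Reg3b: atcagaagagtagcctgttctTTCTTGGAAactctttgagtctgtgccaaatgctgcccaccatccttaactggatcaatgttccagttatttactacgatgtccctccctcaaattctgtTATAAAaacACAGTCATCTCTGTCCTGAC
Reg3g: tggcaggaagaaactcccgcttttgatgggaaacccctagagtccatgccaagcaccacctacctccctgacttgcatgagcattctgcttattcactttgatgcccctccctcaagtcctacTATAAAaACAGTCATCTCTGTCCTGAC
Reg3a: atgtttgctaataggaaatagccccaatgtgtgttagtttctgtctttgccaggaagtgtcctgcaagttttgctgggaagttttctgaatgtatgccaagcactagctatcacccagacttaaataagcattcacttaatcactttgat
Reg4: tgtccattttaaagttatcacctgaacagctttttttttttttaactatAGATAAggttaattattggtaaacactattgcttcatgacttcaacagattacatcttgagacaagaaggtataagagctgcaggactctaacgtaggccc
TATAAA began 29 bases before the start in Reg3b and 27 before it in Reg3g, and 7.57% of 32851 mouse promoter windows of this length hold it. TTCNNNGAA was found in the Reg3b window, beginning 129 bases before the start, and 4.09% of the windows hold it. AGATAA was found in the Reg4 window, 101 bases before the start, against 5.65% of the windows. The shared run of 20 bases, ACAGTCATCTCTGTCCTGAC, ended at the last base before the start in both Reg3b and Reg3g and was present in 2 of the 32851 windows, those of Reg3b and Reg3g. The windows of Reg3b and Reg3g were identical at 106 of 153 aligned positions (69.3%), whereas the other 5 pairs of members had 46.0 to 50.9% identity. The Reg3a values depend on its annotated start, because the longest run that its window shares with that of Reg3g (11 bases) ended 46 bases before the Reg3a start and 94 bases before the Reg3g start. With the Reg3a window moved by these 48 bases, chosen after the sequences were seen, its identity was 72.7% with Reg3g and 63.2% with Reg3b, and it held 0 matches to TATAAA. These matches describe letters only.

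There were 3402 WT cells with 38127808 UMIs in total (median per cell 7760) and 2006 Tipe0-/- cells with 23897126 UMIs (median 7307.5). Mitochondrial genes took 6.59% of WT and 8.56% of Tipe0-/- UMIs, 9 cell barcodes occurred in both libraries, and Tnfaip8 itself had 372 UMIs in WT and 57 in Tipe0-/-, or 9.76 and 2.39 CPM, although a 3′ tag can lie outside the deleted part of a gene. CPM is the number of UMIs per 1000000 UMIs of the cells concerned, which compares genes as molecules without a length correction because 3′ ends were counted. Log2 ratios compare Tipe0-/- with WT after adding 0.5 UMIs to both sums, so that a negative value means a lower level in Tipe0-/-. With 1 library per genotype there was no test of genotype, and the exact 95% intervals in brackets cover counting error only. Differences between mice, pools and libraries cannot be told apart from genotype.

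Reg3b was the most abundant transcript of all genes in both libraries, and the 4 lectins together took 6.25% of all WT UMIs and 3.71% of all Tipe0-/- UMIs. Reg3b was at 40346 CPM in WT (1538308 UMIs) and 25185 CPM in Tipe0-/- (601840 UMIs), which is 1.60-fold lower with a log2 ratio of -0.68 [-0.68, -0.68]. Reg3g was at 21844 CPM in WT and 11738 CPM in Tipe0-/-, 1.86-fold lower with a log2 ratio of -0.90 [-0.90, -0.89], and its rank among all genes went from 3 to 7. Reg4 was far less abundant, at 202 CPM in WT and 126 CPM in Tipe0-/-, with a log2 ratio of -0.68 [-0.74, -0.62]. Reg3a was at 55.2 CPM in WT and 47.4 CPM in Tipe0-/-, with a log2 ratio of -0.22 [-0.33, -0.12]. Thus 3 of the 4 members, Reg3b, Reg3g and Reg4, were at least 1.5-fold lower in the Tipe0-/- library, against 5.06% of the 11665 genes compared. When cells were weighted so that each library had an equal makeup of 16 clusters, described next, Reg3g (-0.81) still passed 1.5-fold, and Reg3b (-0.56) and Reg4 (-0.55) did not. The median gene moved the other way, by 0.15 on the log2 scale, and 8.62% of genes were at least 1.5-fold higher.

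The libraries differed in the cell types they held, so each member was followed through 16 clusters of cells. The clusters were made without the Reg genes and named by markers: 3 were enterocyte-like, 3 goblet-like, 2 stem-like, 2 Paneth-like, 2 lymphocyte-like, and cycling-like, tuft-like and enteroendocrine-like cells had 1 each. Although the samples were labeled as enterocytes, 713 of 3402 WT and 352 of 2006 Tipe0-/- cells were in enterocyte-like clusters. The tuft-like cluster was led by Fabp1, an enterocyte marker here, followed by the tuft genes Sucnr1 and Dclk1, and stem-like cluster 2 by the replication genes Dtl and Cdc6 with Olfm4. Cluster 4, led by Cldn8, Ugt2b5 and Slc40a1 and holding 11.1% of WT and 8.87% of Tipe0-/- cells, stayed unnamed. Its markers of every class lay on average below their mean over all cells. The lymphocyte class scored highest (-0.015), with 0 of 15 markers passing the naming rule, and other classes were not put to that rule. At the same makeup of these clusters the Reg3a ratio was -0.059.

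Droplet libraries contain free RNA, and the lymphocyte-like cells, which are not known to make these lectins, served as its gauge. Reg3b was found in 92.4% [84.9, 96.9] of 92 WT lymphocyte-like cells thinned to 3000 UMIs and in 77.8% [52.4, 93.6] of 18 Tipe0-/- ones, so the presence of a Reg3b UMI did not mark a cell type. Over all cells thinned in the same way the shares were 99.1% and 96.3%. For Reg3g the lymphocyte-like shares were 85.9% and 83.3%, against 99.1% and 97.3% of all cells. The median lymphocyte-like cell held 10.9 Reg3b UMIs per 10000 of its UMIs in WT and 6.49 in Tipe0-/-, and 8.01 and 4.61 for Reg3g. In the 2 libraries 34.0% and 41.5% of their Reg3b UMIs came from a single cell, so medians are used for this gauge. Their median depths of 4385.5 and 4331 UMIs were below those of all cells.

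Reg3b peaked in enterocyte-like clusters in both genotypes but was not confined to them. Enterocyte-like cells held 42.5% of its WT and 36.1% of its Tipe0-/- UMIs, and goblet-like cells 17.5% and 24.8%. In WT the highest levels were in the enterocyte-like clusters 3 and 5, led by Pdzk1 with Cubn and by Arg2 with Fabp6, at 119403 CPM and 111077 CPM, so that 11.9% and 11.1% of all mRNA molecules counted in these cells were Reg3b. The unnamed cluster 4 followed at 78827 CPM, then the villus tip enterocytes of cluster 11 (Apoa4, Ada) at 61779 CPM and the goblet-like cluster 9 at 60613 CPM. Cycling-like cells were at 36907 CPM and tuft-like cells at 34068 CPM. The order ended with the Paneth-like clusters 6 and 12 at 3019 and 888.5 CPM, and the span from highest to lowest was 134-fold. Of the 15 neighboring pairs in this order 1 had overlapping counting intervals, which do not cover the spread over cells. In Tipe0-/- the same clusters led, with 87056 CPM in cluster 5 and 86685 CPM in cluster 3, whose intervals overlapped, then 56329 CPM in cluster 4. Goblet-like cluster 9, at 45605 CPM, was there above villus tip cluster 11, at 27504 CPM.

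The 3 goblet-like clusters differed widely in Reg3b. Cluster 9, which had the mature goblet genes Zg16 and Clca1, held 60613 CPM in WT and 45605 CPM in Tipe0-/-. Cluster 0, led by Id4, C2cd4a and Mt3 with the secretory regulators Creb3l1 and Spdef among its top 10 genes, held 17733 and 14610 CPM. Cluster 8 was led by Ido1, Sval1 and Frmd3 and also had Zg16, Fcgbp and Clca1 among its top 10 genes. It was shallower, with a median of 4712 UMIs per cell, and held 7948 and 3787 CPM.

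Reg3g followed Reg3b in absorptive cells and exceeded it in goblet-like cluster 8 and the Paneth-like clusters. Its WT levels were highest in clusters 3 and 5, at 56314 and 50953 CPM, and 35556 CPM in cluster 4, 35053 CPM in goblet-like cluster 9 and 33656 CPM in villus tip cluster 11. None of the 15 neighboring pairs in the WT order had overlapping counting intervals, which do not cover the spread over cells. As a share of a cell's UMIs, Reg3g in the median WT cell was lower in cluster 4 than in clusters 9 and 11. The order of these clusters was therefore not settled. Goblet-like cluster 8 was at 16258 CPM, above its Reg3b level, and the Paneth-like clusters 6 and 12 were at 6492 and 6142 CPM, also above theirs. In Tipe0-/- these values were 28661, 27835, 23042, 22269 and 12785 CPM for clusters 3, 5, 4, 9 and 11, then 5948 CPM for cluster 8 and 3474 and 2865 CPM for the Paneth-like clusters.

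Reg3a peaked in the same enterocyte-like clusters as Reg3b, at a much lower level. In WT it was at 241 CPM in cluster 3 and 231 CPM in cluster 5, and 62.5% of all its UMIs were in enterocyte-like cells. Villus tip cluster 11 was at 79.5 CPM, goblet-like cluster 9 at 74.4 CPM and cluster 4 at 68.1 CPM. Stem-like cells were at 6.76 CPM and Paneth-like cells at 3.11 CPM, near the 4.06 CPM of WT lymphocyte-like cells, which stood on 2 UMIs. No Reg3a UMI was found in 43 WT enteroendocrine-like cells, which allows a level of up to 6.14 CPM. Because the gene was sparse, 12 of the 15 neighboring pairs in the WT order had overlapping intervals. Tipe0-/- cells showed the same leading clusters, at 264 CPM in cluster 3 and 194 CPM in cluster 5.

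Reg4 was a secretory-cell transcript and was nearly absent where the Reg3 genes were highest. The Paneth-like clusters 6 and 12 were at 932 and 933 CPM in WT and at 639 and 479 CPM in Tipe0-/-, and Paneth-like cells held 82.1% of all WT and 76.7% of all Tipe0-/- Reg4 UMIs. Goblet-like cluster 8 was at 503 and 285 CPM, cluster 0 at 107 and 69.2 CPM, and cluster 9 at 27.4 and 7.93 CPM. Enterocyte-like cells held 18 UMIs in 713 WT cells and 3 UMIs in 352 Tipe0-/- cells, or 3.09 and 1.15 CPM, below the 12.2 CPM of WT lymphocyte-like cells, which stood on 6 UMIs. After thinning, Reg4 was found in 69.4% [63.8, 74.7] of WT and 66.2% [57.7, 74.0] of Tipe0-/- Paneth-like cells, and in 3.26% [0.68, 9.24] of WT lymphocyte-like cells. Before thinning these shares were 91.7% and 93.5% in Paneth-like cells, at median depths of 20545.5 and 25250 UMIs.

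**Figure D1:**
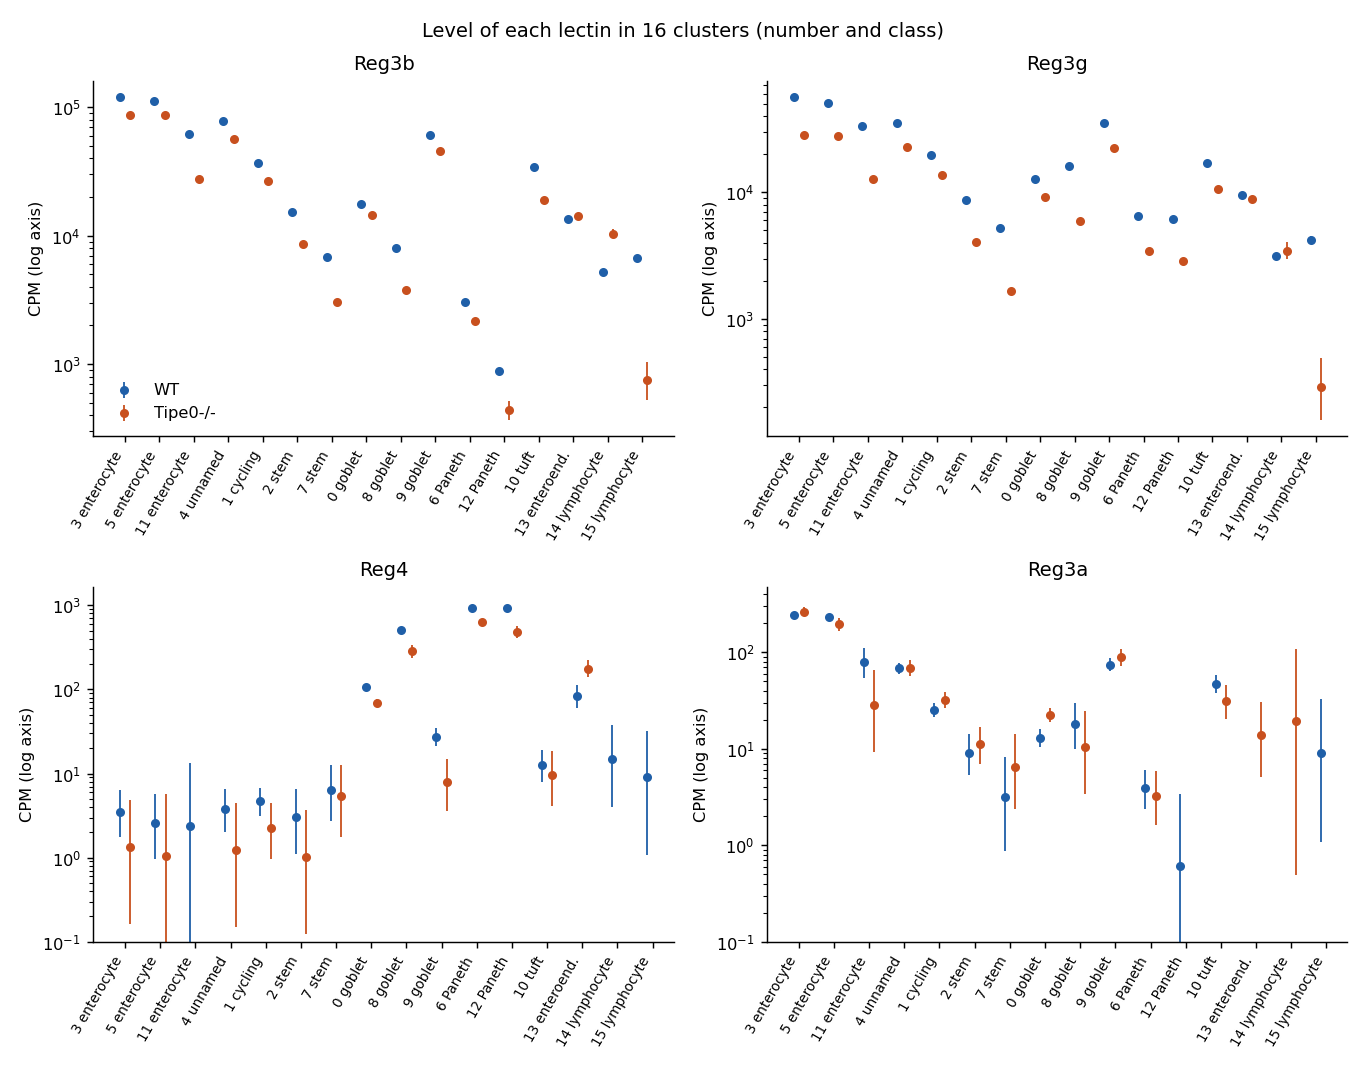
Level of each lectin in 16 clusters, in CPM on a log axis, with WT in blue and Tipe0-/- in orange. Bars are exact 95% Poisson intervals, levels of 0 are not drawn, intervals are cut at 0.1, and the Tipe0-/- points of clusters 12, 14 and 15 rest on 19, 10 and 8 cells. Reg3b, Reg3g and Reg3a peak in enterocyte-like clusters 3 and 5, and Reg4 peaks in Paneth-like clusters 6 and 12.

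The lower Reg3g level of the Tipe0-/- library was found in each cluster with enough cells to compare. In 13 clusters with at least 20 cells in both libraries, Reg3g was lower in Tipe0-/- in all 13, with log2 ratios from -1.65 to -0.12. The smallest difference, in the enteroendocrine-like cluster, turned to 0.047 with the mean UMIs of lymphocyte-like cells subtracted and was -0.094 with their median subtracted. The clusters left out were Paneth-like cluster 12 and the lymphocyte-like clusters 14 and 15, and in cluster 14 Reg3g was at 3131 CPM in WT and 3471 CPM in Tipe0-/-. Reg3b was lower in 12 of 13, with ratios from -1.17 to 0.06, and the exception was the enteroendocrine-like cluster. In the clusters left out its ratio was -1.02 in cluster 12, 0.99 in cluster 14 and -3.14 in cluster 15. Those values stood on 19, 10 and 8 Tipe0-/- cells. Reg4 was lower in 11 of 13, but the counting interval lay below 0 in 4 and above 0 in 1. Reg3a was lower in 5 of 13, with 2 intervals below 0 and 2 above.

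By class, the largest Reg3g difference was in stem-like cells, which held 7359 CPM in WT and 3299 CPM in Tipe0-/-, a log2 ratio of -1.16 [-1.19, -1.12]. Enterocyte-like cells went from 52590 to 27289 CPM, a ratio of -0.95 [-0.96, -0.93], and Paneth-like cells from 6407 to 3422 CPM, a ratio of -0.90 [-0.93, -0.88]. The median of all genes tested in Paneth-like cells was 0.43 higher in Tipe0-/-, the largest shift of any class. Goblet-like cells went from 18035 to 10785 CPM (-0.74), tuft-like cells from 17171 to 10587 CPM (-0.70) and cycling-like cells from 19777 to 13708 CPM (-0.53). The goblet-like value pools clusters 0, 8 and 9, with ratios of -0.47, -1.45 and -0.65. The stem-like value pools clusters 2 and 7 (-1.10 and -1.65), and the enterocyte-like value clusters 3, 5 and 11 (-0.97, -0.87 and -1.40). Clusters 8 and 11 thus differed more than stem-like cluster 2. Reg3g was thus at least 1.5-fold lower in 7 of 9 classes, all but the cycling-like and enteroendocrine-like ones. The share of all tested genes that were 1.5-fold lower was 4.47% in enterocyte-like cells, 4.17% in the unnamed cluster, 4.28% in stem-like, 3.38% in goblet-like, 1.43% in Paneth-like, 9.27% in tuft-like and 14.9% in lymphocyte-like cells. It was 2.63% in cycling-like and 6.34% in enteroendocrine-like cells, where Reg3g did not reach that fold. Neither Reg3g nor Reg3b was 1.5-fold higher in any class, whereas among all genes 13.0% were so in enterocyte-like cells, 9.27% in the unnamed cluster, 5.94% in cycling-like, 5.85% in stem-like, 6.02% in goblet-like, 31.9% in Paneth-like, 7.66% in tuft-like and 11.0% in lymphocyte-like cells. The lymphocyte-like value of -0.91 [-1.14, -0.70] stood on 191 Tipe0-/- UMIs in 18 cells, of which 48.2% came from 1 cell, and leaving out the 5% of cells with the highest doublet scores gave -0.16.

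Reg3b differed less than Reg3g in most classes. Enterocyte-like cells held 112023 CPM in WT and 82838 CPM in Tipe0-/-, a log2 ratio of -0.44 [-0.44, -0.43], which did not reach 1.5-fold. The ratios were -0.48 in the unnamed cluster, -0.47 in cycling-like, -0.54 in goblet-like and -0.32 in Paneth-like cells. Class values pool clusters whose shares differ between the libraries. Paneth-like clusters 6 and 12 had -0.49 and -1.02, both below the class value, and cluster 12 held 66 of 288 WT and 19 of 139 Tipe0-/- cells. Goblet-like clusters 0, 8 and 9 had -0.28, -1.07 and -0.41. Enterocyte-like clusters 3, 5 and 11 had -0.46, -0.35 and -1.17, and stem-like clusters 2 and 7 had -0.82 and -1.15. Clusters 8, 11 and 12 thus passed 1.5-fold where their classes did not. Reg3b was at least 1.5-fold lower in 2 of 9 classes. Tuft-like cells went from 34068 to 19123 CPM (-0.83) and stem-like cells from 11969 to 6852 CPM (-0.80). Subtracting the median UMIs of lymphocyte-like cells as free RNA left the stem-like ratio at -0.82, and subtracting their mean, which 1 rich cell per library raises, gave -1.80.

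Enteroendocrine-like cells were the exception for Reg3b, at 13600 CPM in WT and 14142 CPM in Tipe0-/-, a log2 ratio of 0.06 [0.01, 0.11]. The summed value stood on few cells, since 25.8% of the Tipe0-/- UMIs came from 1 of 27 cells. Without the cell with the most Reg3b UMIs in each library the ratio was -0.15, in clusters built on variable genes chosen by mean and dispersion (28 WT and 14 Tipe0-/- cells) it was -0.70, and the median cell went from 103 to 36.5 UMIs per 10000. Reg3g in the same cells was at 9619 and 8840 CPM, with medians of 85.3 and 24.97 UMIs per 10000 per cell.

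Reg4 in Paneth-like cells went from 932 to 625 CPM, a log2 ratio of -0.58 [-0.65, -0.51] that lay just short of 1.5-fold. With totals that leave out mitochondrial genes and the 20 most abundant genes, which include Paneth cell defensins, the ratio was -0.87. In goblet-like cells Reg4 went from 122 to 73.2 CPM, a ratio of -0.74 [-0.88, -0.59]. Enteroendocrine-like cells went the other way, from 83.9 to 177 CPM, a ratio of 1.07 [0.51, 1.66], where 6.99% of tested genes were at least 1.5-fold higher. Only 6 of 43 WT and 6 of 27 Tipe0-/- enteroendocrine-like cells held a Reg4 UMI. The 3 richest cells held 16, 16 and 3 of the 41 WT UMIs and 25, 23 and 19 of the 76 Tipe0-/- UMIs, which leaves 6 and 9 UMIs in all other cells. Of the cells with Reg4, 5 of 6 in WT and 3 of 6 in Tipe0-/- had at least 3 UMIs of Tac1 or Tph1, genes of serotonin-making enterochromaffin cells. Among all enteroendocrine-like cells 15 of 43 and 9 of 27 did. The cells with these genes held 38 of the 41 WT but 27 of the 76 Tipe0-/- Reg4 UMIs.

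Reg3a differed by less than its counting interval in its main cell type, at 226 CPM in WT and 223 CPM in Tipe0-/- enterocyte-like cells, with a log2 ratio of -0.02 [-0.16, 0.12]. Its ratio was 0.02 in the unnamed cluster and 0.19 [-0.07, 0.44] in goblet-like cells, where cluster 0 alone went from 12.9 to 22.5 CPM, a ratio of 0.80 [0.41, 1.195]. Villus tip cluster 11 went from 79.5 to 28.4 CPM, with a wide interval of -3.20 to -0.12. Enterocyte-like cells held 62.5% of Reg3a UMIs in WT and 51.5% in Tipe0-/-. None of the 6 classes with at least 50 Reg3a UMIs had an interval that lay below 0.

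**Figure D2:**
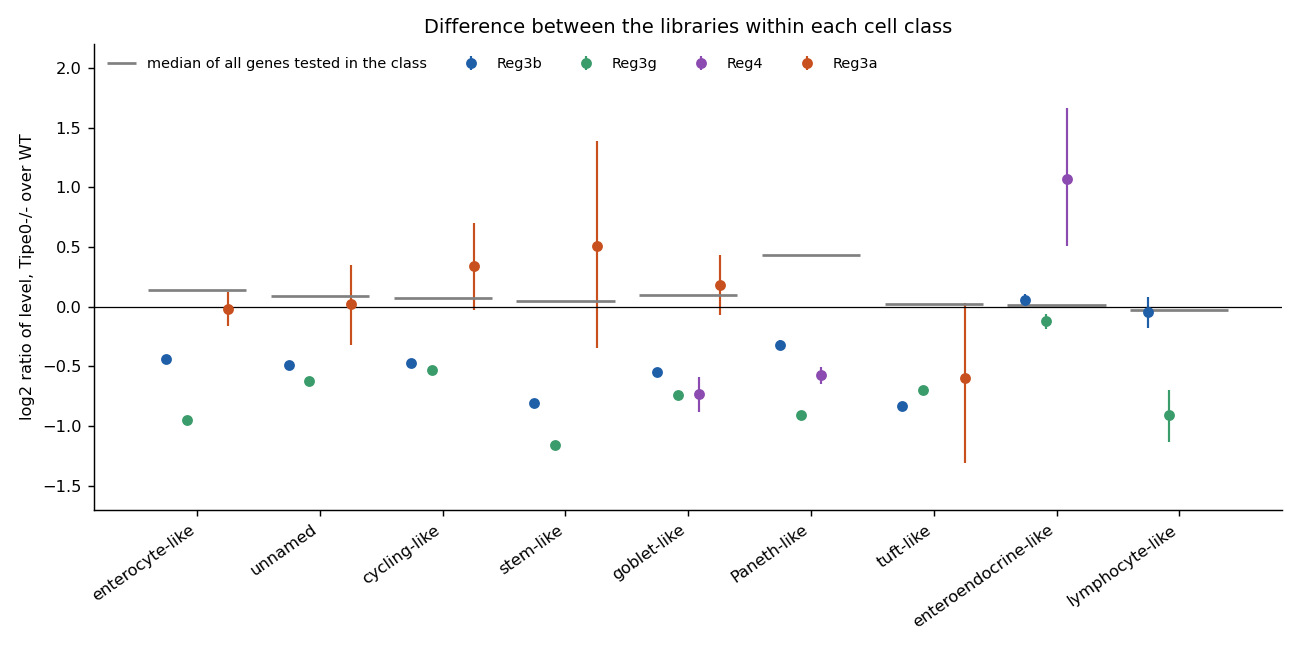
Log2 ratio of each lectin's level, Tipe0-/- over WT, within each cell class with its clusters pooled, for lectins with at least 50 UMIs in the class. Bars are exact 95% counting intervals and gray lines the median of all genes tested in the class. Reg3g lies below 0 in all 9 classes, and Reg4 lies above 0 in enteroendocrine-like cells and below it in goblet-like and Paneth-like cells.

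Over single cells the lectins fell into 2 patterns of spread. Reg3b and Reg3g were shared widely, with the richest 1% of cells holding 6.98% and 6.99% of their WT UMIs and 8.93% and 9.62% of their Tipe0-/- UMIs. Reg4 was concentrated, and the richest 1% of cells held 45.5% of its WT and 39.1% of its Tipe0-/- UMIs. A single WT Paneth-like cell had 446 Reg4 UMIs, and without the 1% of cells richest in Reg4 its whole-library ratio was -0.52. In the median enterocyte-like cell Reg3b made up 1091 of 10000 UMIs in WT and 772 in Tipe0-/-, and Reg3g 455 and 245. The middle 90% of these cells ran from 171 to 925 Reg3g UMIs per 10000 in WT and from 47.2 to 488 in Tipe0-/-, so single cells of the 2 libraries overlapped broadly. Stem-like medians for Reg3g were 50.1 and 21.0 UMIs per 10000, above the lymphocyte-like medians of 8.01 and 4.61. Paneth-like medians for Reg3b, at 13.4 and 10.1 UMIs per 10000, were close to the lymphocyte-like 10.9 and 6.49, and in Paneth-like cluster 12 the WT median of 8.26 was below it. Paneth-like cells were deeper, and in UMIs per cell their medians were 26.5 and 23, against 5 and 3.5 in lymphocyte-like cells. In WT cluster 12 that median was 17.

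**Figure D3:**
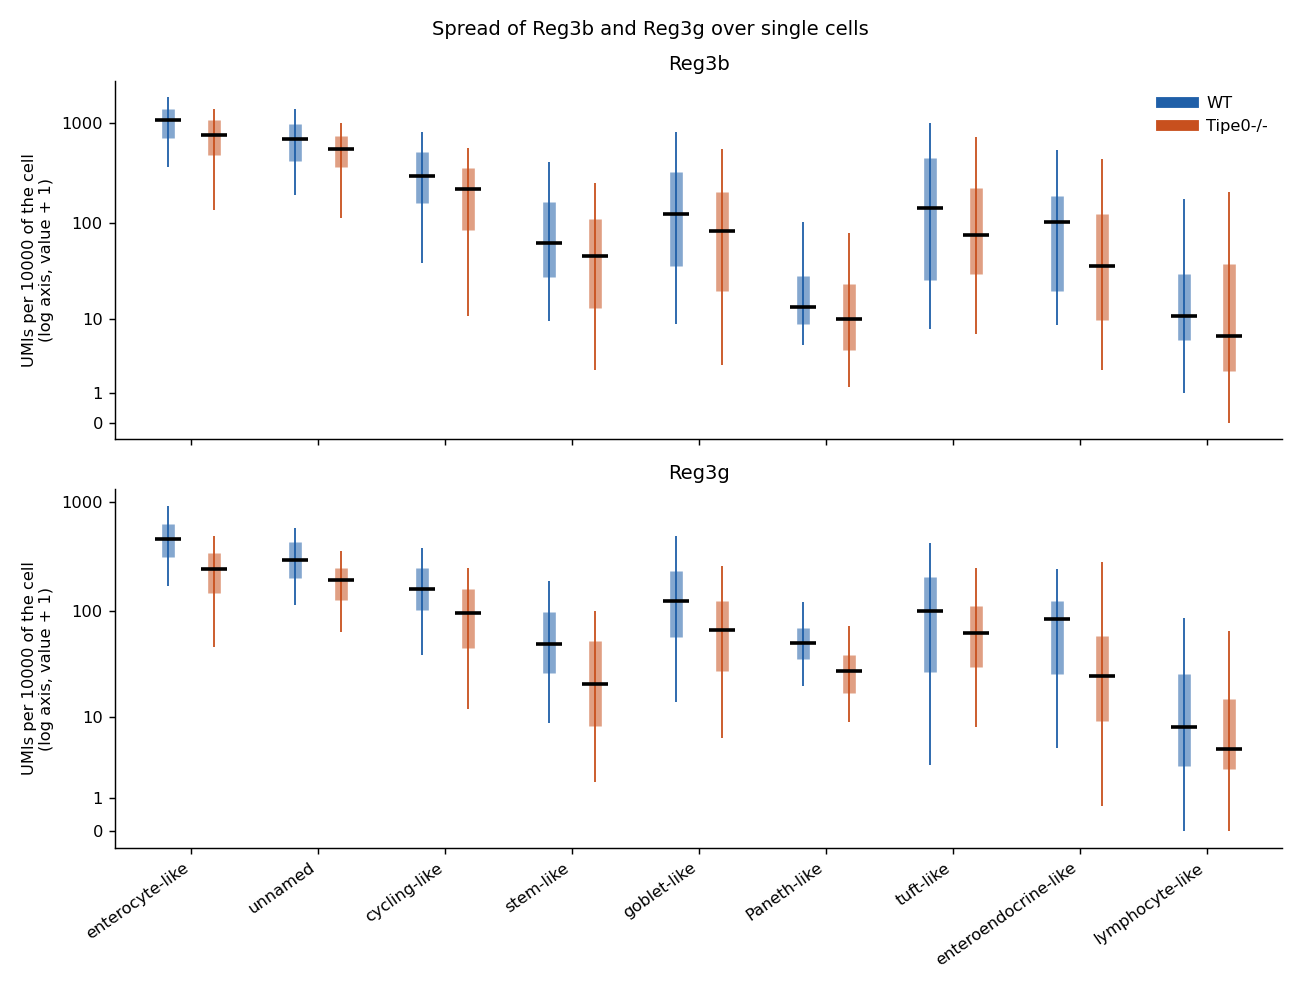
Reg3b and Reg3g in single cells of each class, in UMIs per 10000 of the cell on a log axis after adding 1. Black bars are medians, boxes span the middle 50% of cells and lines the middle 90%, with WT in blue and Tipe0-/- in orange. The Tipe0-/- median lies below the WT median for both genes in all 9 classes.

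Cells rich in Reg3b were also rich in Reg3g. Their rank correlation over cells was 0.80 in WT and 0.79 in Tipe0-/- enterocyte-like cells (713 and 352 cells) and 0.91 and 0.88 in cycling-like cells, values that include whatever free RNA the cells of a library share. It was 0.43 and 0.46 in Paneth-like cells. The proportion between the genes depended on the cell type. In WT, enterocyte-like cells held 0.470 Reg3g UMIs for each Reg3b UMI [0.467, 0.472], and 0.70% of these cells had more Reg3g than Reg3b. Paneth-like cluster 6 held 2.15 [2.11, 2.19] and cluster 12 held 6.91 [6.54, 7.31], and in cluster 12 98.5% of cells had more Reg3g than Reg3b. Goblet-like cluster 8 also favored Reg3g, with 2.05 [1.99, 2.11], whereas goblet-like cluster 9 had 0.578 and cluster 0 had 0.713. Lymphocyte-like cells had 0.615 [0.579, 0.652], near the 0.541 of the whole WT library.

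In Tipe0-/- the same 3 clusters kept more Reg3g than Reg3b, at 1.62 in cluster 6, 6.55 in cluster 12 and 1.57 in cluster 8. Enterocyte-like cells had 0.329 [0.327, 0.332] Reg3g UMIs for each Reg3b UMI, down from 0.470. Over the whole library the ratio was 0.541 in WT and 0.466 in Tipe0-/-. Tuft-like cells were the exception, with 0.504 [0.497, 0.511] in WT and 0.554 [0.539, 0.568] in Tipe0-/-. Cells with a Reg4 UMI after thinning were poor in Reg3b among goblet-like cells, with a median of 9 thinned Reg3b UMIs in 103 WT cells with Reg4 against 42.5 in 644 cells without it. The medians were 9.5 in 56 and 27 in 466 Tipe0-/- cells. These values pool 3 clusters that differ in both genes. In WT, Reg4 was found after thinning in 14.4%, 21.6% and 4.27% of the cells of clusters 0, 8 and 9. Their Reg3b levels were 17733, 7948 and 60613 CPM. Whether the contrast holds within a single cluster was not tested.

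**Figure D4:**
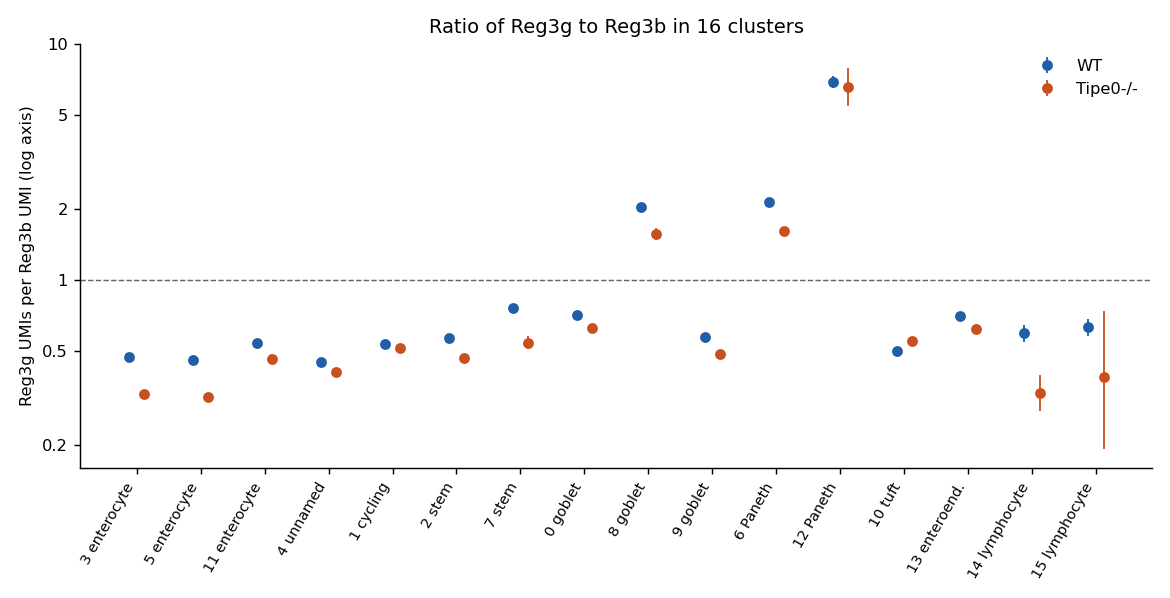
Reg3g UMIs for each Reg3b UMI in 16 clusters, on a log axis, with exact 95% counting intervals, WT in blue and Tipe0-/- in orange, and a dashed line at 1. Clusters 8 (goblet-like), 6 and 12 (Paneth-like) lie above 1 in both libraries, at 2.05, 2.15 and 6.91 in WT, and all others lie below it.

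Enterocyte-like cells were ranked by a score of 6 villus tip genes and cut into 4 equal bins within each library, which are ranges of a score and not cell types. Below the highest bin the order rested mainly on Apoa1, since each other tip gene had at most 5 UMIs per bin there. The bins also followed the clusters. In WT, cluster 5 gave 173 of the 179 cells of the lowest bin, and cluster 3 gave 170 of the 178 cells of bin 3. Reg3b in WT was at 104205, 116103, 129561 and 90506 CPM from the lowest bin to the highest, so it was highest in bin 3. In Tipe0-/- it was at 85856, 92590, 90918 and 52249 CPM. The log2 ratio between bins of the same rank went from -0.28 in the lowest to -0.79 in the highest. A bin need not hold the same villus position in both libraries, because each library was cut on its own. From the lowest bin to the highest, Apoa1 was at 49.4, 1073, 5293 and 18204 CPM in WT and at 53.0, 1840, 10370 and 21831 CPM in Tipe0-/-. Reg3g in WT was at 46956, 57137, 59675 and 42620 CPM, and in Tipe0-/- at 27796, 28693, 29600 and 21374 CPM. Its ratios between genotypes were -0.76 in the lowest bin and between -0.99 and -1.01 in the other 3. Reg3a had its lowest level in the top bin, at 103 CPM in WT against 285 CPM in the bin below, and 131 against 300 CPM in Tipe0-/-. The top bin held nearly all cells of cluster 11, with 67 of 70 in WT and 29 of 32 in Tipe0-/-.

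The other Reg genes of the chromosome 6 cluster were near absent, and Reg1 went opposite to the members. Reg1, which encodes a secreted lectin known from the pancreas, had 154 UMIs in WT and 299 in Tipe0-/-, or 4.04 and 12.5 CPM, a log2 ratio of 1.63 [1.35, 1.92]. It was higher in cycling-like cells, at 6.89 and 23.7 CPM, and in goblet-like cells, at 5.73 and 17.4 CPM, while enterocyte-like cells held 6 and 2 UMIs. Reg3d had 16 and 15 UMIs and Reg2 had 1 and 2.

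The members were set beside other epithelial defence genes known to respond to microbes or to IL-22 and STAT3. Of 32 listed genes, 31 were in the tables and 24 had enough UMIs. The list was chosen with results of these data known. Of the 24, 16 were at least 1.5-fold lower in Tipe0-/-, 0 were higher, and the median log2 ratio was -0.88, against 5.06% lower, 8.62% higher and a median of 0.15 for all 11665 genes. Retnlb, a bactericidal goblet cell protein, went from 367 to 27.5 CPM (-3.74), and within goblet-like cells from 1075 to 46.2 CPM. Sprr2a3, a small proline-rich protein, went from 366 to 43.0 CPM (-3.09), Saa1, an acute-phase retinol carrier, from 502 to 97.4 CPM (-2.37), and Ang4, a Paneth cell ribonuclease with antibacterial activity, from 2262 to 781 CPM (-1.54). Duox2 and Duoxa2, which form the epithelial hydrogen peroxide source, had ratios of -0.92 and -1.07, and Nos2, the inducible nitric oxide synthase, -0.96. The ratios of the listed genes are over whole libraries and include any difference in cell makeup. Within enterocyte-like cells the ratio was -0.36 for Nos2, short of 1.5-fold, and -1.43 for Duox2. For Ang4 it was -1.03 within Paneth-like cells and -3.74 within goblet-like cells, which went from 1990 to 149 CPM. Lypd8, which binds flagellated bacteria, had -0.84, Fut2, a fucosyltransferase, -1.22, and Lrg1, a STAT3-responsive secreted protein, -2.28. Saa2, Saa3, Sprr2a1, Sprr1a, Lcn2 and Nfkbiz made up the rest of the 16, with ratios from -2.06 to -0.68. The Reg3g ratio of -0.90 lay among these, next to Duox2, and the Reg3b ratio of -0.68 lay at the smallest of them, that of Nfkbiz. Genes of the list that stayed within 1.5-fold, named after their values were seen, included Pigr (-0.11), the transporter of secretory IgA, Itln1 (-0.31), an intelectin of Paneth cells, Socs3 (-0.54), a STAT3 target and inhibitor, and Tifa (0.22).

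**Figure D5:**
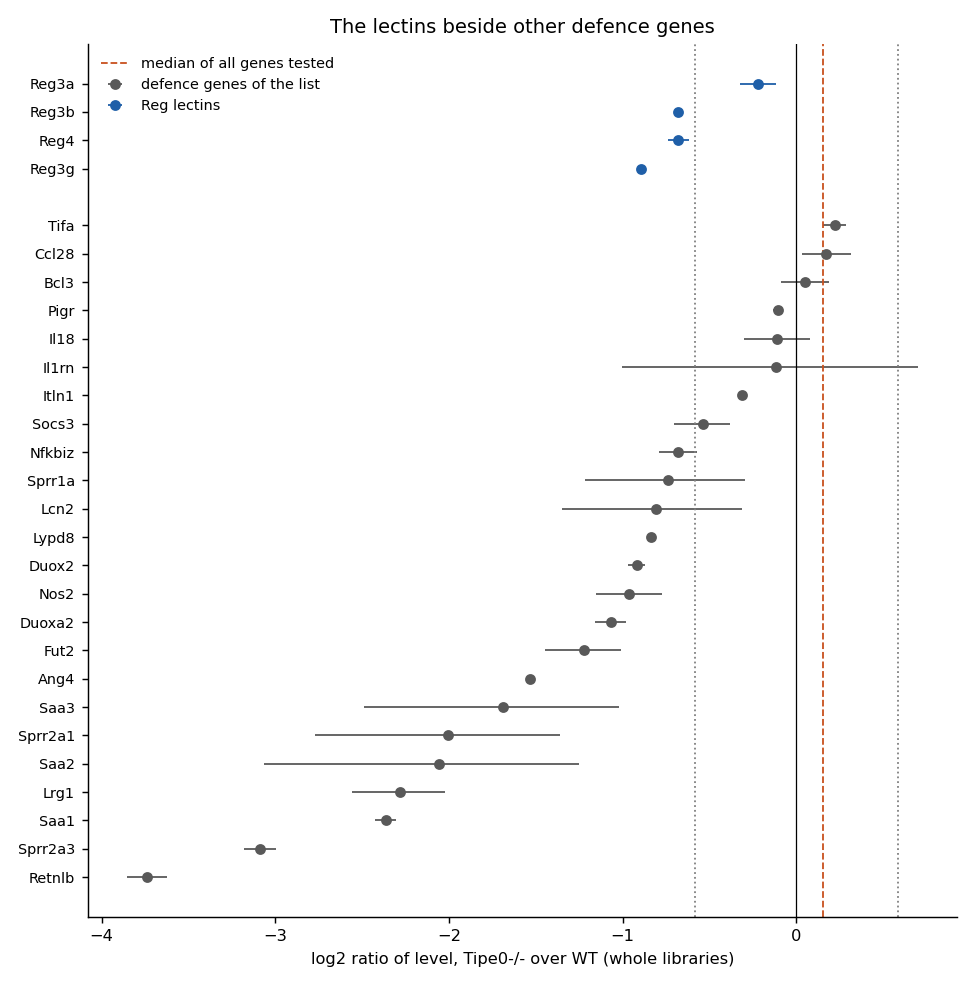
Log2 ratio, Tipe0-/- over WT, of the 4 lectins in blue and of 24 defence genes in gray, over whole libraries. Bars are exact 95% counting intervals, dotted lines mark 1.5-fold and the dashed line the median of all genes tested. Of the 24 defence genes, 16 lie beyond the lower dotted line and 0 beyond the upper.

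Most of the listed receptors and signaling genes stayed within 1.5-fold, as did most of all genes compared. Of 23 listed genes, 18 had enough UMIs, 2 were at least 1.5-fold lower and 0 were higher, against 5.06% and 8.62% of all genes. Their median log2 ratio was -0.12, against 0.15 for all genes. Stat3 was at 52.3 and 51.5 CPM (-0.02), Myd88 at 15.1 and 15.4 CPM (0.03) and Il10rb, a subunit of the IL-22 receptor, at 20.5 and 22.2 CPM (0.11). Il22ra1, its other subunit, had 6 and 5 UMIs, too few to compare. The 2 lower genes were Socs1, an inhibitor of cytokine signaling induced by interferon, from 14.4 to 4.603 CPM (-1.64), and Tlr4, the receptor for lipopolysaccharide, with 58 and 16 UMIs (-1.15 [-2.08, -0.37]). Among 7 cytokines Il22 had 0 UMIs in both libraries and Tnf, with 53 and 21 UMIs (-0.64 [-1.47, 0.09]), had enough to compare. The lymphocyte-like cells, only some of which are of types known to make these cytokines, numbered 92 and 18. Of these, 42 and 8 were in cluster 15, which had the B cell gene Ms4a1 among its leading genes.

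Antimicrobial genes outside this group were mostly lower in Tipe0-/-. Of 14 with enough UMIs, 12 had a ratio below 0, whereas 69.3% of all genes compared lay above 0. Of the 14, 5 were at least 1.5-fold lower and 1 was higher, against 5.06% and 8.62% of all genes, and the median log2 ratio was -0.46. These ratios are over whole libraries. Paneth-like cells numbered 288 of 3402 in WT and 139 of 2006 in Tipe0-/-, and goblet-like cells 747 and 522. The effect of this makeup on the ratios was not tested. Mptx1 (-1.68) and Mptx2 (-0.63), Paneth cell pentraxins, and Defa17 (-0.68), Defa24 (-0.67) and Defa3 (-0.72), Paneth cell alpha-defensins, were lower. The defensin genes are near-identical copies, so reads may be split between them and single values are uncertain. Zg16, a goblet cell lectin that binds peptidoglycan as Reg3g does, went from 1418 to 3470 CPM, a ratio of 1.29, opposite to Reg3g. Lyz1, the Paneth cell lysozyme, also named after its value was seen, was at 2455 and 3151 CPM (0.36).

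The genes with patterns most like the members were sought over 29 points, each a cluster in a library with at least 20 cells, by Pearson's correlation of log2(CPM + 1) among 9824 genes. These points share 2 libraries and differ in depth, so the values are descriptions. Reg3b was most like Mylk (0.97), Tmem120a, Gna11, Mall and Gm3336. Reg3g was most like Batf2 (0.91), St3gal4, Prss27, Tubal3 and Car4. All but Tubal3 were at least 1.5-fold lower in Tipe0-/-, from -1.52 for Car4 to -0.72 for St3gal4, against 5.06% of all genes compared. The points included both libraries, so genes that were lower in Tipe0-/-, as Reg3g was, were favored in this choice. Reg3a was most like Dhrs11 (0.93), Tgfbi, Zzef1, Abcg5 and Abhd11os. Reg4 was most like the Paneth cell genes Defa17 (0.95), Mmp7, Itln1, Defa24 and Pla2g2f. Among the members, Reg3b correlated with Reg3g at 0.89 and with Reg3a at 0.86, and with Reg4 at -0.68. In clusters built from another choice of variable genes 0 of the 5 Reg3a neighbors, 3 of those of Reg3b and of Reg3g and 4 of those of Reg4 recurred.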

How the data were processed

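The authors prepared the libraries on the Chromium System with 3′ v2 chemistry, used Cell Ranger with mm10 for alignment and counting, and deposited 1 table of raw UMI counts per genotype (27998 genes in each), with no normalization. Cell Ranger does not count reads that match several genes equally well. The submitters' labels name enteroids digested by collagenase and dispase, and the methods enterocytes digested by DNase I and Dispase, which was not resolved. Members and gene lists were chosen with earlier results of these data known.

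All deposited cells were used, each with at least 3247 UMIs. Clusters came from Seurat 5.3.0 and R 4.3.3 (log-normalization, 2000 variable genes by vst, 14 principal components, resolution 0.8). Every Reg symbol and the 117 genes that the study lists as different between the genotypes did not enter clustering, so 1936 variable genes remained. The study chose variable genes by mean and dispersion, an alternative here. Each cluster was tried only against the class whose listed markers had the highest mean scaled expression in it. It took that class name if 3 or more of these markers were detected in 10% or more of its cells. Each such marker's share also had to be at least 1.5 times that in all other cells. Its top 10 genes could not hold more markers of another class than of that class, with stem and cycling markers counted together.

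UMIs were summed per library and class (Python 3.11.15, numpy 2.4.6, scipy 1.17.1, pandas 2.3.3). With 1 library per genotype no test was run, and intervals are exact 95% Poisson (levels), binomial (ratios) and Clopper-Pearson (shares) intervals. Genes whose UMIs over both libraries came to 50 or more were compared, overall and within a class, and named from the lists where they differed by at least 1.5-fold. On simulated counts these ratios had the right direction and intervals close to their nominal coverage. That result says nothing of the spread over cells or mice, which the intervals do not cover. A count of 0 was given the limit of 3 counts. Scrublet in Scanpy 1.11.5 scored doublets, and none were removed. The alternatives varied totals, scaling, doublets, clustering, makeup, free RNA and filters.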

Additional observations from a re-analysis of the deposited data

Results flagged for a closer look

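Both results below concern the 43 WT and 27 Tipe0-/- enteroendocrine-like cells, and were singled out because the change between the libraries had the opposite sign from that in another class. The log2 ratio of Reg3b was 0.056 [0.0059, 0.11] in enteroendocrine-like cells and -0.83 [-0.86, -0.81] in tuft-like cells. The difference was not tested, and the enteroendocrine-like value was -0.15 without the richest cell of each library. The tuft-like value stood on 140 WT and 44 Tipe0-/- cells, and the 5 richest of the latter held 51.6% of their Reg3b UMIs.

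The log2 ratio of Reg4 was 1.07 [0.51, 1.66] in enteroendocrine-like cells and -0.74 [-0.88, -0.59] in goblet-like cells. The difference was not tested either. All but 6 of 41 WT and 9 of 76 Tipe0-/- Reg4 UMIs came from 3 cells per library.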

How the results depend on the processing

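All whole-library ratios of the 4 members kept their sign under every alternative run, but not every 1.5-fold difference held. Reg3g kept it in 10 of 10 alternatives, Reg3b in 9 of 10 (lost with the same makeup of the 16 clusters) and Reg4 in 6 of 10 (lost in mean log-normalized expression, without the richest cells and with the same makeup of classes or clusters). For Reg3b (-0.68 as reported) the ratio was -0.74 with totals that leave out mitochondrial and the 20 most abundant genes, -0.83 scaled to the median ratio, -0.81 as a difference of mean log-normalized expression, -0.64 with equal weight per cell, -0.67 without the 5% highest doublet scores, -0.71 without the 1% richest cells, -0.59 with the same makeup of classes, -0.56 with the same makeup of the 16 clusters and -0.74 with free RNA subtracted as the lymphocyte-like mean. In the same order, where it moved beyond its counting interval, Reg3g (-0.90) was -0.95, -1.05, -1.10, -0.98 with equal weight, -0.92 without the richest cells, -0.83 and -0.81. Reg4 (-0.68) was -0.83 scaled to the median ratio, -0.090 in mean log-normalized expression, where most cells are at 0, -0.81 with equal weight, -0.52 without the richest cells, -0.52 and -0.55 with the same makeup. Reg3a (-0.22) was -0.37 scaled to the median ratio, -0.019 in mean log-normalized expression, and -0.089 and -0.059 with the same makeup. The 590 genes lower by 1.5-fold became 306 at a minimum of 200 UMIs and 284 at a fold of 2, and the 1005 higher became 601, 178 and, scaled to the median ratio, 494. Scaling raised the lower count to 805. Of 191 class ratios under alternatives, 184 kept their sign. In enteroendocrine-like cells Reg3b turned to -0.15 without the richest cell and -0.70 with variable genes by mean and dispersion, and Reg3g to 0.047 with free RNA subtracted, and the causes were not tested. The other 4 changes of sign were in Reg3a, to -0.061 in the unnamed cluster with free RNA subtracted and to -0.039 in goblet-like cells at resolution 1.2, and in lymphocyte-like Reg3b, to 0.71 without high doublet scores and 0.27 with variable genes by mean and dispersion. The same makeup of the 16 clusters, the median of lymphocyte-like cells as free RNA and the removal of the richest cell were chosen after seeing the data. No paired analysis was possible because each genotype has 1 library.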
